A study of Mus musculus with 12 samples.

Results

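The proteins that start and drive the elongation step of protein synthesis were followed at the transcript level in cultured vascular smooth muscle cells of the mouse. The genes were chosen by symbol, as every gene whose name begins with Eif1 to Eif6 or with Eef1 or Eef2, leaving out the eIF2 kinases of the Eif2ak family. Of 26301 gene identifiers in the RNA-seq counts, 62 met this rule, 60 of them genes and 2 annotated as the pseudogenes Eif1-ps1 and Eif1-ps2. All 62 were also among the 15352 identifiers of the RIP-seq counts, in which RNA that coprecipitates with an antibody is sequenced. The rule used symbols and no measured value, but it was set with earlier results of these data known.

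Translation starts when the initiation factors eIF1, eIF1A, eIF3, eIF5 and the eIF2-bound initiator tRNA load onto the small ribosomal subunit and the cap complex eIF4F brings in an mRNA. In that complex eIF4E holds the cap, eIF4A unwinds the leader and eIF4G is the scaffold between them, while the 4E-BP proteins compete with eIF4G for eIF4E. During elongation eEF1A delivers charged tRNA and eEF2 moves the ribosome along the mRNA. The THO complex, to which Thoc2 and Thoc5 belong, binds nascent mRNA and couples its transcription to nuclear export.

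The cells were primary aortic smooth muscle cells from C57BL/6 mice aged 6 weeks. In the RNA-seq experiment, cells at passages 4 to 8 carried either a short hairpin RNA against Thoc5 (shThoc5, 2 libraries) or a non-targeting hairpin (shNT, 2 libraries), and RNA was taken 4 days after infection. The RIP-seq experiment used cells with no hairpin in their labels, with 1 Thoc2 precipitate, 1 Thoc5 precipitate and 1 input library at passage 3, and the same 3 libraries at passage 10. The labels give 1 antibody per protein and no control antibody, do not say whether libraries came from separate animals or cultures, and give both silenced libraries the same hairpin number, so loss of Thoc5 and any other action of that hairpin cannot be told apart. A further 2 chromatin immunoprecipitation libraries were not analysed here.

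The RNA-seq libraries held 15819207 to 21037732 counted reads and the RIP-seq libraries 5396291 to 36336141. Ribosomal RNA took 19.2% of the passage 3 Thoc2 precipitate, 7.33% of the passage 3 Thoc5 precipitate and at most 1.76% of every other library. Thoc5 itself stood at 7.37 and 5.75 reads per 1000000 counted reads (CPM) in shThoc5 and at 33.5 and 38.9 CPM in shNT, which is −2.51 ± 0.21 as a log2 fold change and its standard error (edgeR quasi-likelihood adjusted p = 0.499, DESeq2 adjusted p = 6.67e-15). Of 8 smooth muscle markers, 8 were detected in each RNA-seq library and 7 in each RIP-seq library, with Myocd unlisted there. Summed smooth muscle markers stood at 1389 and 2317 CPM in shThoc5 and at 1978 and 4042 CPM in shNT, endothelial markers (6 genes) at 293 and 297 CPM in shThoc5 and at 385 and 611 CPM in shNT, and adventitial fibroblast markers (5 genes) at 708 and 686 CPM in shThoc5 and at 932 and 837 CPM in shNT. The fibroblast markers did not move together. Dcn stood at 291 and 306 CPM in shThoc5 and at 580 and 528 CPM in shNT. Pdgfra, the 1 of 4 tested with a log2 fold change above 0, stood at 414 and 377 CPM in shThoc5. In shNT it stood at 348 and 304 CPM. The 5 macrophage markers summed to between 2.05 and 3.09 CPM. The part of these markers in the silencing results was not tested.

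The genes are expressed over a wide range, and 2 elongation factors dominate them. The 62 genes together took between 1.498% and 1.69% of the reads of an RNA-seq library, and Eef1a1 and Eef2 alone made up between 40.4% and 42.5% of that share. Scaled to gene length, Eef1a1, the carrier of charged tRNA, averaged 2268 CPM per kilobase in shThoc5 and 2228 in shNT. Eef2, the translocation factor, averaged 818 CPM per kilobase in shThoc5 and 817 in shNT. The next levels per kilobase belonged to Eif3e (241 in shThoc5 and 231 in shNT), the eIF4G relative Eif4g2 (224 and 225) and Eif3h (221 and 208), of which Eif3e and Eif3h encode subunits of eIF3. Within the cap complex, Eif4b averaged 173 CPM per kilobase in shThoc5 and 159 in shNT, Eif4a1 153 and 128, and the scaffold Eif4g1 94.3 and 96.8. The cap-binding protein Eif4e stood lower, at 17.2 CPM per kilobase in shThoc5 and 18.8 in shNT. At the low end were Eif3j1 (4.12 and 3.40), Eif2b3 (3.97 and 3.73), a subunit of the eIF2B exchange factor, and Eif5a2 (4.78 and 5.02), the less abundant of the eIF5A genes here. Counts of Eef1a1, of the eIF1A genes Eif1a and Eif1ax, of Eif1, and of Eif3j1 and Eif3j2 may be shared with near-identical copies and are uncertain. Eif1-ps2 had 0 reads in all 4 RNA-seq libraries, which at these depths allows a level of up to 0.190 CPM in the shallowest.

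A sequence feature that the rule did not use was recorded at the gene starts. RefSeq start sites of build GRCm38.p6, taken from 250 bases before to 50 bases after the start, were at hand for 46 of the 62 genes. The E-box CACGTG, the motif bound by factors such as Myc and Usf1 and its own reverse complement, occurred within the 250 bases before a start in 11 of these 46 genes (23.9%), against 1854 of 27025 genes in the table (6.86%). The 11 were Eef2, Eef2k, Eif1b, Eif3f, Eif3k, Eif4a1, Eif4e, Eif4g1, Eif4h, Eif5a and Eif5a2. A gene counted if any of its listed starts had the motif, so genes with more starts had more chances. The comparison set was every gene with a start, expressed or not, and a comparison with expressed genes was not made. A match is a string of letters and no measured binding site. The windows of 30 bases around the match are shown for 7 of the 11, which are core factors of their step or among the largest ratios between the inputs, 5′ to 3′ in the sense of the gene, with the motif in capitals.
Eef2: acccggcgccgtCACGTGacgcacccaacc
Eef2k: cccggggacggcCACGTGagcccgggcgtg
Eif4e: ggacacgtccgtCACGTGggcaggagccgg
Eif4g1: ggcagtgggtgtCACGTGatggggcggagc
Eif4a1: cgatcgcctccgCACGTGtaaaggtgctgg
Eif4h: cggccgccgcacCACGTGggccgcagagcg
Eif5a: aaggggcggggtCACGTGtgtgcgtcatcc
These lie at chr10:81176576-81176605 on the plus strand for Eef2, chr7:120842788-120842817 (plus) for Eef2k, chr3:138527192-138527221 (plus) for Eif4e and chr16:20672661-20672690 (plus) for Eif4g1. They lie at chr11:69672595-69672624 (minus) for Eif4a1, chr5:134639488-134639517 (minus) for Eif4h and chr11:69921443-69921472 (minus) for Eif5a. The motif began between 31 bases (Eef2k) and 189 bases (Eif4a1) before the start.

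The first comparison asked whether these transcripts differed after silencing of Thoc5. No translation factor was called in either direction. The edgeR quasi-likelihood test called 0 of 60 genes tested, and 0 of all 13569 genes (0%), Thoc5 among them. At an unadjusted p under 0.05 stood 1 of the 60 and 651 of all genes (4.8%). DESeq2 called 0 of the 60, with no adjusted p for Eef1a2 and Eif3j2, against 0.455% of 10559 genes with an adjusted p. The limma-voom fit called no gene at all. Log2 fold changes ran from −0.43 to 0.34, with a median of 0.01 for the 60 genes and 0.01 for all genes. Their median size was 0.11, against 0.20 between the 2 shThoc5 libraries and 0.21 between the 2 shNT libraries for the same genes. A difference of 2-library means is less noisy than one of single libraries. Over all 13569 genes, same-numbered libraries of the groups deviated together (correlation 0.635), so the gaps between replicates are partly shared by both groups. They therefore do not measure the noise of the silencing difference. The count over all genes with the replicate number as a block is given in the closing section. Both shThoc5 libraries lay above both shNT libraries for 13 of the 60 (21.4% of all genes) and below them for 4 (12.4% of all genes). The smallest two-sided p of an exact permutation test at this size is 0.333.

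The translation factor with an unadjusted p under 0.05 was Eef1g, the gamma subunit of the eEF1 exchange complex. It stood at 186 and 163 CPM in shThoc5 and at 217 and 236 CPM in shNT, and both silenced libraries lay below both controls. The log2 difference was −0.43, standard error 0.16 (edgeR unadjusted p = 0.0391, adjusted p = 0.9995), and the authors' deposited table gives −0.42 with an adjusted p of 0.9999. Eef1b2 and Eef1d, subunits of the same complex, had log2 fold changes of 0.10 and 0.18, with both silenced libraries above both controls.

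Among the genes with the largest positive log2 fold changes were 2 relatives of the cap-binding protein. Eif4e2, which binds the cap without joining eIF4G, stood at 66.9 and 70.3 CPM in shThoc5 and at 52.0 and 55.6 CPM in shNT (log2 0.30, standard error 0.14). Eif4e3 stood at 30.7 and 30.9 CPM in shThoc5 and at 28.4 and 18.7 CPM in shNT (log2 0.34, standard error 0.22), a span that overlaps the gene Gpr27. In both cases the silenced libraries lay above both controls, and the control spread of Eif4e3 exceeded its difference from the nearest silenced library. Eif4a3, a helicase of the exon junction complex that is deposited on spliced mRNA, stood at 83.7 and 86.9 CPM in shThoc5 and at 66.0 and 69.5 CPM in shNT (log2 0.28, standard error 0.14). Eif4ebp2, Eif3g and Eif1ad followed with log2 fold changes of 0.27, 0.26 and 0.26. All 6 had an edgeR adjusted p of 0.9995.

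Among the largest negative log2 fold changes, Eif4a2, the second eIF4A helicase, stood at 247 and 287 CPM in shThoc5 and at 311 and 299 CPM in shNT (log2 −0.24, standard error 0.16). Its span overlaps Rfc4 and a small nucleolar RNA gene. Eif2b2, Eef2k and Eif4ebp3 had log2 fold changes of −0.25, −0.20 and −0.20, and for each of them the groups overlapped. Eif3j2 had a log2 fold change of −0.40 but stood under 1 CPM in every library. Eef2 was flat, at 2556 and 2514 CPM in shThoc5 and at 2714 and 2353 CPM in shNT, so that both silenced libraries fell between the controls. The plot of CPM by library shows these genes beside Eef1a1, Eif4e and Eif4g1, whose log2 fold changes were −0.03, −0.18 and −0.09. Of the remaining core factors, Eif2s1, Eif5a, Eif4a1, Eif6 and Eif4ebp1 had log2 fold changes of 0.13, 0.04, 0.21, 0.10 and −0.03.

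**Figure D1:**
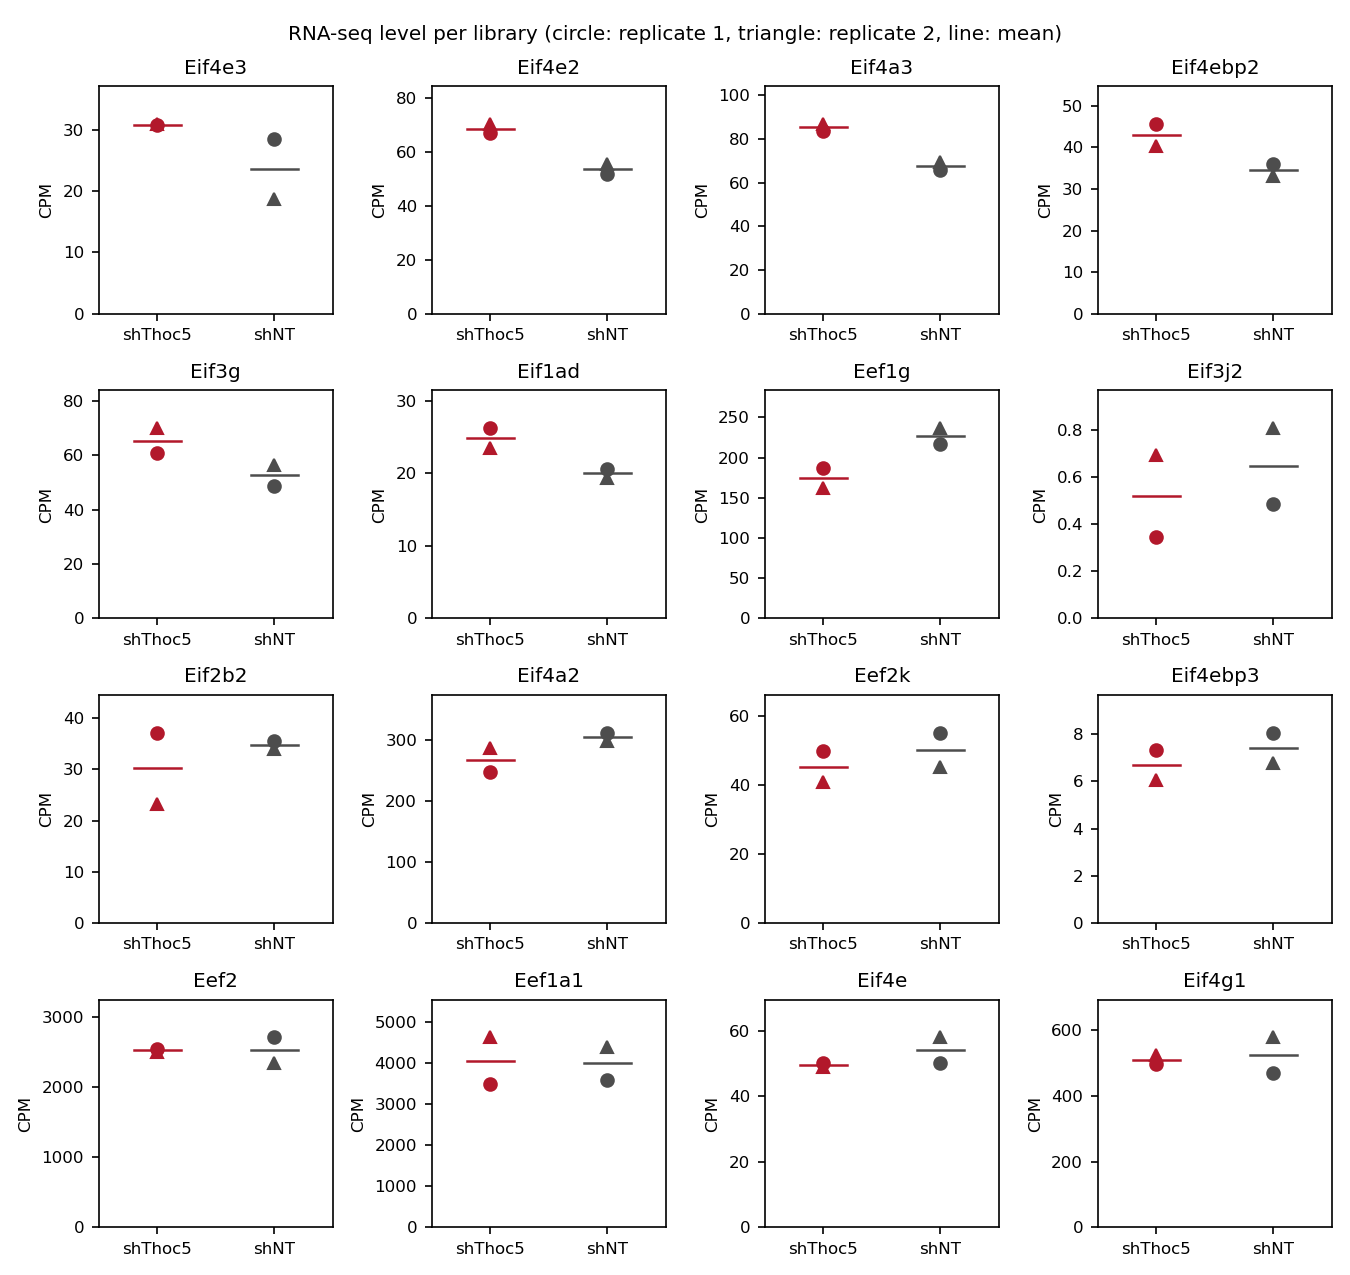
RNA-seq level in CPM (y axis, from 0) of 16 translation factor genes in the 2 shThoc5 libraries (red) and the 2 shNT libraries (grey); circles are replicate 1, triangles replicate 2 and lines group means. For Eif4e2, Eif4a3 and Eef1g the groups do not overlap, while both shThoc5 values of Eef2 lie between the shNT values of 2714 and 2353 CPM.

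Factors that act around this group were taken from lists of poly(A)-binding, termination, eIF2 kinase, mTOR, hypusine, diphthamide and mitochondrial translation genes. Of 45 such genes 44 were tested and the edgeR test called 0, as it did of all 13569 genes. That test did not call Thoc5 itself (edgeR adjusted p = 0.499), so any list would have had a count of 0. The largest log2 fold changes were 0.44 for Pdcd4, an inhibitor of eIF4A, and 0.29 for Rps6kb2, an S6 kinase, and the lowest were −0.63 for Mknk2, a kinase of eIF4E, and −0.37 for Ppp1r15a, a phosphatase subunit for eIF2.

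The second comparison asked which transcripts stood higher or lower in the Thoc2 and Thoc5 precipitates than in their input. With no control antibody, binding to these proteins and unspecific recovery cannot be told apart. With 1 library per antibody and passage there is no replicate check and no p-value, so intervals cover counting error only. Enrichment is given as the log2 ratio of precipitate over input CPM with 0.5 CPM added to each. A gene was called enriched at a ratio of at least 2-fold with at least 10 reads and 1 CPM in the precipitate, and depleted at the mirror of this in the input. Both antibodies of a passage share an input library, so their values are given side by side.

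In each precipitate the share of translation factor transcripts called enriched was below that of all listed genes. In the passage 3 Thoc2 precipitate 5 of 62 genes were enriched (16.1% of all listed genes) and 20 depleted (19.5%). In the passage 3 Thoc5 precipitate 7 of 62 were enriched (20.8%) and 9 depleted (11.5%). In the passage 10 Thoc2 precipitate 4 of 59 listed genes were enriched (11.5%) and 7 depleted (6.88%). In the passage 10 Thoc5 precipitate 1 of 59 was enriched (5.66%) and 1 depleted (4.39%). The medians of the genes lay below those of all listed genes in each precipitate. For Thoc2 they were −0.67 against −0.17 at passage 3 and −0.34 against −0.03 at passage 10, and for Thoc5 −0.07 against 0.14 and −0.15 against 0.02. Of the 59 genes listed in every precipitate, 14 stood above 0 in all 4 and 28 below 0 in all 4, while of all 12727 such genes 30.05% stood above and 29.4% below 0 in all 4. On totals without ribosomal and mitochondrial RNA, 12 of the 59 stood above and 27 below 0 in all 4. With TMM scaling factors the counts were 13 and 31. Shares of all genes under these scalings are not given here. The 2 precipitates of a passage share their input, so none of these counts is of 4 separate measurements.

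The split of calls at passage 3 moved with the scaling. On totals without ribosomal and mitochondrial RNA, which raise the median of all genes with Thoc2 by 0.19, 8 genes were enriched (20.1% of all genes) and 17 depleted (15.7%), the same 5 genes joined by Eif3c, Eif4b and Eif4enif1. With TMM scaling factors, which lower the median of all genes with Thoc5 by 0.24, 5 genes were enriched (15.6% of all genes) and 16 depleted (16.5%) there. Over all genes, enriched calls outnumber depleted ones with Thoc2 under the one scaling, and depleted calls outnumber enriched ones with Thoc5 under the other.

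Of the 59 translation factors listed in every precipitate, 1 was enriched in all 4 and 2 in 3 of them. The 2 were Eif4g1 and Eif4ebp3. The share of all genes enriched that often is not given here. Eif4g1 and Eif4g3 are over 4000 bases, a length at which 13.97% to 39.5% of all genes were enriched in a precipitate. Eif4g3, a scaffold of the cap complex and a paralog of eIF4G1, was the 1 enriched in all 4 precipitates. It had 2176 reads with Thoc2 and 2241 with Thoc5 against 3006 in the passage 3 input, which is 4.87-fold (95% interval 4.61 to 5.15) and 4.53-fold (4.29 to 4.79) relative to library totals. At passage 10 it had 4385 reads with Thoc2 and 1390 with Thoc5 against 1354 in the input, or 3.78-fold (3.56 to 4.02) and 2.09-fold (1.94 to 2.25). Its log2 enrichment lay above that of at least 95.3% of listed genes in each precipitate. Eif4g1 stood at 1188 CPM with Thoc2 and 913 CPM with Thoc5 against 352 CPM in the passage 3 input, and at 804 and 587 CPM against 298 CPM at passage 10. Its log2 enrichment was 1.75 and 1.37 at passage 3 and 1.43 and 0.97 at passage 10, so the last fell just short of the 2-fold call. The span of Eif4g1 overlaps Snord66. Another eIF4G-like gene, Eif4g2, which lacks the eIF4E-binding part and serves cap-independent initiation, stood between −0.11 and 0.02 on the log2 scale in all 4.

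Other parts of the cap complex went different ways. Eif4b, which assists eIF4A, was above 0 in all 4 precipitates, with log2 enrichment of 0.90 and 0.80 at passage 3 for Thoc2 and Thoc5 and of 1.08 and 0.53 at passage 10. It passed the call with Thoc2 at passage 10, with 26193 reads against 14454 in the input. The cap-binding protein Eif4e was below its input in all 4. It stood at 46.9 CPM with Thoc2 and 56.2 CPM with Thoc5 against 143 CPM in the passage 3 input, and at 18.8 and 27.7 CPM against 42.3 CPM at passage 10. Its log2 enrichment was −1.60 and −1.34 at passage 3 and −1.15 and −0.60 at passage 10, depleted in 3 of 4. The helicase Eif4a1 lay between −0.87 and −0.17 and Eif4h between 0.02 and 0.44.

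Of the repressors of eIF4E, Eif4ebp3 was enriched in 3 precipitates. It stood at 33.9 CPM with Thoc2 and 29.5 CPM with Thoc5 against 12.9 CPM in the passage 3 input, and at 41.3 and 17.2 CPM against 15.2 CPM in the passage 10 input. Its log2 enrichment was 1.37, 1.17 and 1.41 in the first 3 of these and 0.17 with Thoc5 at passage 10. With Thoc5 at passage 3 the call is lost under TMM scaling. At 741 bases it is the shortest of the 58 genes with a deposited length. By RefSeq order its neighbour is Ankhd1, whose log2 enrichment was 3.59 and 2.76 at passage 3 for Thoc2 and Thoc5 and 2.19 and 1.13 at passage 10, with 743 and 463 precipitate reads against 400 in the input at passage 3. Whether reads of Ankhd1 enter the count of Eif4ebp3 was not tested. Eif4ebp1 stood below 0 in all 4, between −0.73 and −0.47, and Eif4ebp2 above 0 in all 4, between 0.33 and 0.92. At passage 3 Eif4ebp2 had 17 reads with Thoc2 and 22 with Thoc5 against 87 in the input. The 95% intervals of these ratios, 0.733 to 2.23 and 0.917 to 2.48, include no change.

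Eif3a and Eif5b stood apart in the passage 3 Thoc2 precipitate. Eif3a, the large scaffold subunit of eIF3, had 7462 reads with Thoc2 and 1806 with Thoc5 against 8938 in the passage 3 input, which is 5.62-fold (95% interval 5.45 to 5.80) and 1.23-fold (1.17 to 1.29) by CPM. At passage 10 it had 11379 and 3767 reads against 7132, or 1.86-fold (1.81 to 1.92) and 1.07-fold (1.03 to 1.12). Eif5b, the GTPase that joins the ribosomal subunits, had 2907 reads with Thoc2 and 869 with Thoc5 against 3650 in the passage 3 input, or 5.36-fold (5.11 to 5.63) and 1.45-fold (1.34 to 1.56). At passage 10 it had 4305 and 1800 reads against 4651, or 1.08-fold (1.04 to 1.13) and 0.787-fold (0.745 to 0.831). Its span overlaps that of Rev1, whose 274 reads in the passage 3 Thoc2 precipitate against 557 in the input gave 3.31-fold. The authors' deposited table of genes selected for Thoc2 at passage 3 holds Eif3a, Eif5b and Eif4g3, that for Thoc5 at passage 3 holds Eif3j2, and that for Thoc2 at passage 10 holds Eif3a, Eif4b, Eif4ebp3, Eif4g1 and Eif4g3.

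**Figure D2:**
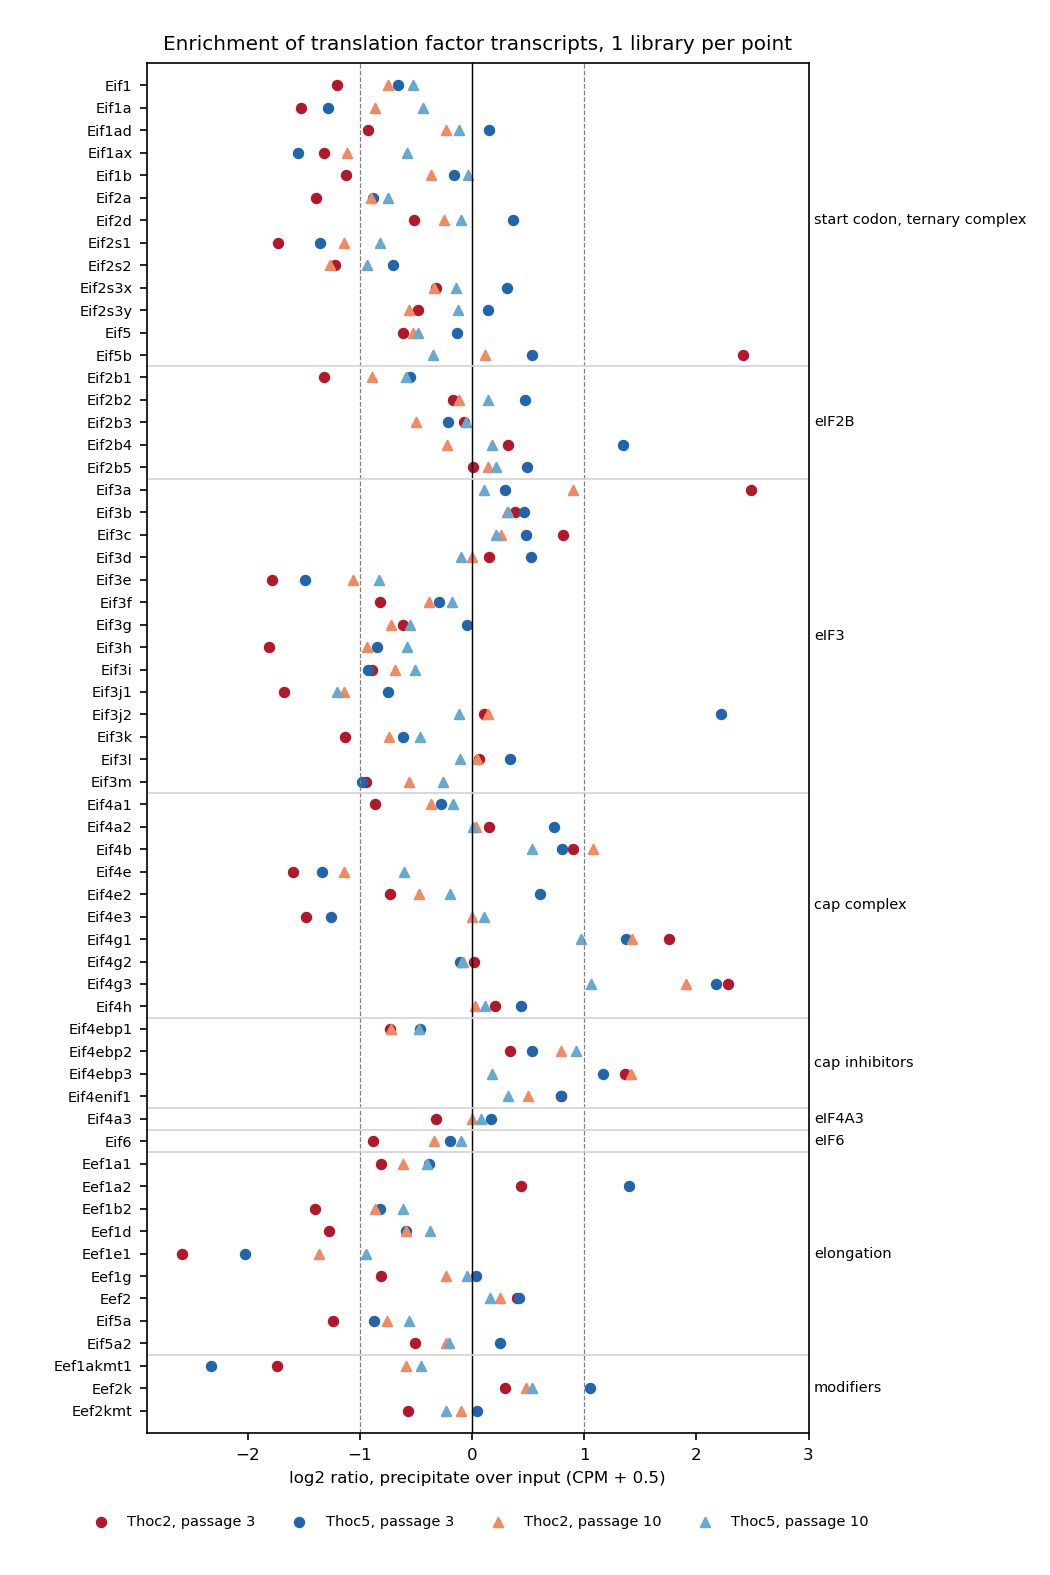
Log2 ratio of precipitate over input CPM, with 0.5 CPM added (x axis), for the 60 translation factor genes that are not pseudogenes (down the page, grouped by role), with 1 point per precipitate; circles are passage 3, triangles passage 10, red shades Thoc2 and blue shades Thoc5, and dashed lines mark 2-fold. Eif4g3 lies at or right of 1.06 in every precipitate, while Eif3a (2.49) and Eif5b (2.42) are far right with Thoc2 at passage 3.

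The rest of eIF3 spread widely around Eif3a. The core subunits Eif3b and Eif3c lay above 0 in every precipitate, from 0.31 to 0.46 and from 0.21 to 0.81. Eif3e was below its input throughout, at 96.2 CPM with Thoc2 and 118 CPM with Thoc5 against 333 CPM in the passage 3 input, and at 164 and 193 CPM against 343 CPM at passage 10. In that order its log2 enrichment was −1.79, −1.49, −1.06 and −0.83. Eif3h reached −1.81 with Thoc2 at passage 3 and −0.85, −0.93 and −0.58 in the others. Eif3j1, a loosely bound subunit whose span overlaps Spg11, was depleted in 3 of 4. Its log2 enrichment was −1.68 with Thoc2 and −0.75 with Thoc5 at passage 3, from 56 and 121 reads against 1250 in the input. At passage 10 it was −1.15 with Thoc2 and −1.20 with Thoc5, from 127 and 70 reads against 340. Eif3j2 was called with Thoc5 at passage 3 from 34 reads against 30 (6.89-fold, 95% interval 4.09 to 11.7) and had 5 reads with Thoc2. That call is lost at a minimum of 50 reads.

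Of the 13 transcripts of start codon and ternary complex factors, 7 were depleted with Thoc2 and 3 with Thoc5 at passage 3, and 3 with Thoc2 and 0 with Thoc5 at passage 10, beside 19.5%, 11.5%, 6.88% and 4.39% of all genes. The 1 enriched was Eif5b, with Thoc2 at passage 3. Their median log2 enrichment in the same order was −1.12, −0.16, −0.56 and −0.44, and 5 of the 13 stood above 0 with Thoc5 at passage 3. Eif2s1, the eIF2 subunit that stress kinases phosphorylate, stood at 41.7 CPM with Thoc2 and 54.1 CPM with Thoc5 against 139 CPM in the passage 3 input, and at 40.8 and 51.1 CPM against 90.8 CPM at passage 10. Its log2 enrichment was −1.73, −1.36, −1.14 and −0.82. Eif2s2, another eIF2 subunit, had −1.22, −0.71, −1.27 and −0.94, and Eif1ax had −1.32, −1.55, −1.12 and −0.58. The exchange factor eIF2B had 1 depleted subunit with Thoc2 at passage 3, Eif2b1, and 1 enriched with Thoc5 at passage 3, Eif2b4, with 197 reads against 460 (2.60-fold, 95% interval 2.19 to 3.08). The pseudogene Eif1-ps1 had 153 reads in the passage 3 input and 0 in both precipitates. With 3 counts set in place of 0 it would be 7.57-fold lower with Thoc2 and 8.39-fold lower with Thoc5. The upper 95% limits of its ratio to the input were 0.164 with Thoc2 and 0.148 with Thoc5.

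Of the elongation factors listed in all 4 precipitates, Eef2, whose span overlaps Snord37, was the one above its input in each. By reads it held rank 1 of all listed genes in the passage 10 Thoc2 precipitate, rank 3 in the Thoc5 precipitate and rank 4 in that input. It stood at 2526 CPM with Thoc2 and 2565 CPM with Thoc5 against 1917 CPM in the passage 3 input, and at 8834 and 8326 CPM against 7453 CPM in the passage 10 input. These are ratios of 1.32, 1.34, 1.19 and 1.12, none near the 2-fold call, and log2 values of 0.40, 0.42, 0.25 and 0.16. Eef1a1 stood below its input in all 4, with log2 values of −0.81, −0.39, −0.62 and −0.40. Eif5a, which helps ribosomes past proline runs and whose span overlaps Gps2, had −1.24, −0.88, −0.76 and −0.56.

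Among the 9 elongation factors the lowest log2 enrichment in each precipitate was that of Eef1e1, which encodes a subunit of the multi-tRNA synthetase complex. It stood at 19.5 CPM with Thoc2 and 28.9 CPM with Thoc5 against 119 CPM in the passage 3 input, and at 8.53 and 11.5 CPM against 22.7 CPM at passage 10. Its log2 enrichment was −2.58, −2.02, −1.36 and −0.95. Eef1akmt1, a lysine methyltransferase of eEF1A, had −1.74 and −2.33 at passage 3, from 19 and 13 reads against 469, and −0.59 and −0.45 at passage 10. Eef2k, the kinase that inhibits eEF2, stood above 0 in all 4 and passed the call with Thoc5 at passage 3, with 122 reads against 349 (2.13-fold, 95% interval 1.72 to 2.62). That call is lost under TMM scaling and with 2 CPM added in place of 0.5. Eef1a2, the muscle and neuron form of eEF1A, was called with Thoc5 at passage 3 from 31 reads against 60 (3.14-fold, 1.97 to 4.92) and was not listed at passage 10. That call is lost at a minimum of 50 reads and with 2 CPM added. The remaining core genes Eif6, which keeps ribosomal subunits apart, and Eif4a3 lay between −0.88 and −0.10 and between −0.32 and 0.17.

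Log2 enrichment was higher for longer genes, among these genes as among all genes. Over the 58 genes with a deposited length, Spearman's rho between length and log2 enrichment was 0.46 for Thoc2 and 0.44 for Thoc5 at passage 3, and 0.41 and 0.33 at passage 10. Over all listed genes with a length it was 0.56 and 0.41 at passage 3 and 0.61 and 0.58 at passage 10. These are descriptions across genes that share 1 library each. Under 2000 bases the medians of the 26 translation factors with Thoc2 and Thoc5 were −0.88 and −0.34 at passage 3. They were −0.58 and −0.33 at passage 10. All genes of that length had medians of −0.85, −0.35, −0.51 and −0.36 in this order. Between 2000 and 4000 bases the 23 translation factors had medians of −0.57, 0.15, −0.23 and −0.12 in the same order, and all genes −0.10, 0.27, 0.01 and 0.07. Over 4000 bases 4 of 9 translation factors were enriched with Thoc2 at passage 3 (39.5% of all genes of that length), 2 with Thoc5 at passage 3 (36.8%), 2 with Thoc2 at passage 10 (31.4%) and 1 with Thoc5 at passage 10 (13.97%). In the same order the medians of the 9 were 0.80, 0.53, 0.11 and −0.05, beside 0.73, 0.67, 0.58 and 0.44 for all genes of that length. The 4 with Thoc2 at passage 3 were Eif3a, Eif4g1, Eif4g3 and Eif5b. Of the 9, Eif4g2, Eif2b3, Eif4e2, Eif5a2 and Eif4enif1 did not pass the call in any precipitate. How far length accounts for the calls was not tested.

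**Figure D3:**
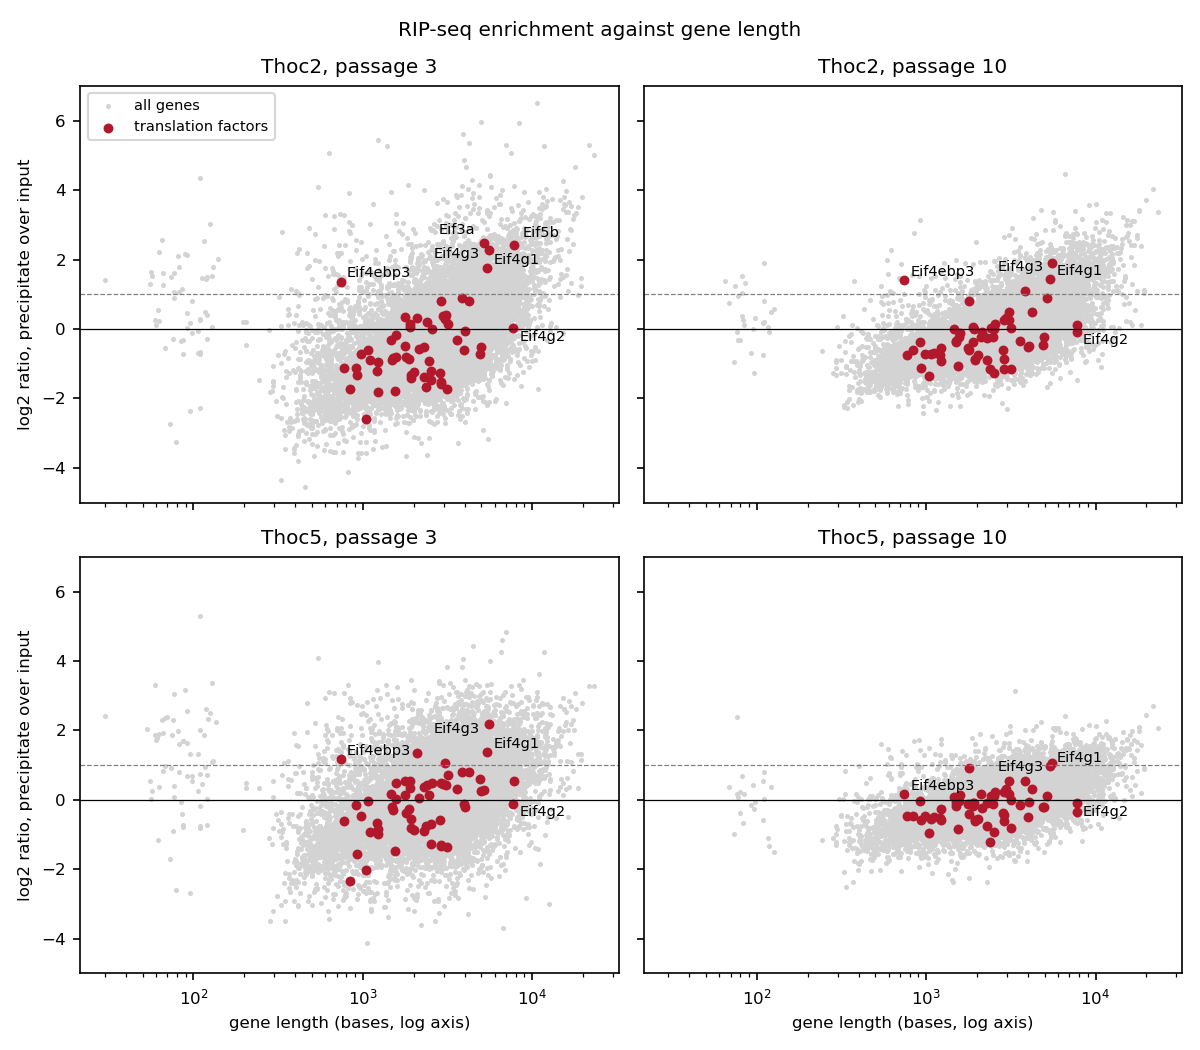
Log2 ratio of precipitate over input CPM (y axis) against deposited gene length in bases (x axis, log scale) in the 4 precipitates, with all listed genes in grey and the 58 translation factors that have a length in red. Eif4ebp3, at 741 bases, lies above the 2-fold line (dashed) in all panels but Thoc5 at passage 10, and Eif4g2 lies near 0 at 7760 bases.

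The Thoc2 and Thoc5 precipitates were also compared directly, which removes the shared input. At passage 3, 2 of 61 genes were at least 2-fold higher with Thoc2 than with Thoc5 (5.36% of all genes) and 4 at least 2-fold lower (12.8%). The 2 were Eif3a, at 1383 CPM with Thoc2 and 302 CPM with Thoc5 (4.58-fold, 95% interval 4.35 to 4.82), and Eif5b, at 539 and 145 CPM (3.70-fold, 3.43 to 4.00). The medians were −0.49 for the 61 genes and −0.29 for all genes. Those lower with Thoc2 were Eif4e2 (68.6 and 174 CPM), Eif1ad (25.8 and 54.7 CPM), Eif2b4 (15.9 and 33.0 CPM) and Eif3j2 (0.927 and 5.69 CPM). At passage 10, 1 of 59 genes was at least 2-fold higher with Thoc2 (3.67% of all genes) and 0 at least 2-fold lower (1.09%). It was Eif4ebp3, at 41.3 CPM with Thoc2 and 17.2 CPM with Thoc5 (2.40-fold, 2.02 to 2.87). Eif3a and Eif5b did not pass 2-fold between the antibodies at passage 10. Ribosomal RNA took 19.2% of the passage 3 Thoc2 library and 7.33% of the Thoc5 library, so the ratios were also taken under other scalings, chosen after seeing the data. On totals without ribosomal and mitochondrial RNA the median of all genes at passage 3 was −0.11, and Eif3a and Eif5b had log2 ratios of 2.39 and 2.08. Of the 4 genes lower with Thoc2, Eif1ad (log2 −1.07) and Eif2b4 (−1.03) then missed 2-fold, at −0.88 and −0.84, and also with TMM scaling, at −0.74 and −0.70. Eif4e2 passed narrowly with TMM scaling (−1.0003), and Eif3j2, with 5 reads with Thoc2, passed under both.

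Among the 45 surrounding translation genes, 6 were enriched and 12 depleted with Thoc2 at passage 3 (16.1% and 19.5% of all genes), and 5 and 5 with Thoc5 (20.8% and 11.5%). At passage 10, 4 were enriched and 4 depleted with Thoc2 (11.5% and 6.88%), and 1 and 2 with Thoc5 (5.66% and 4.39%). Eif2ak4, the eIF2 kinase GCN2 that senses uncharged tRNA, was enriched in all 4, with log2 values of 2.21, 2.26, 2.08 and 1.04. Mtor, the kinase that phosphorylates the 4E-BP proteins, had 2.42, 1.98, 1.79 and 0.90, and its partner Rptor reached 0.91 with Thoc5 at passage 10. At the low end were Paip2, an inhibitor of poly(A)-binding protein, at −2.23, −1.80, −1.23 and −0.83, and Mtrf1, a mitochondrial release factor, with 1 read against 146 for Thoc2 at passage 3. Dnajc24 with Thoc5 at passage 3 (−2.36, from 5 reads), Dph6 with Thoc2 at passage 10 (−1.24) and Mcts1 and Denr with Thoc5 at passage 10 (−1.03 and −1.02) were the other lowest.

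The third comparison set the input of passage 10 against that of passage 3, 1 library each, to describe how the levels differ with time in culture. The 62 genes took 2.41% of the reads in the passage 10 input and 1.31% in the passage 3 input. Eef1a1 and Eef2 made up 52.9% of that share at passage 10 and 32.6% at passage 3. At least 2-fold higher at passage 10 were 15 of 62 genes (27.2% of all genes), and at least 2-fold lower were 7 (14.9%). The median log2 ratio was 0.25 for these genes and 0.31 for all genes. TMM scaling lowers the median of all genes by 0.42, and with it 6 genes were at least 2-fold higher (16.6% of all genes) and 13 at least 2-fold lower (21.45%), so the split between higher and lower turns round with the scaling, for these genes and for all genes. In bulk RNA, fewer cells of a type and less RNA per cell cannot be told apart.

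The largest difference belonged to Eif4ebp2, a repressor of eIF4E, at 39.9 CPM at passage 10 and 2.39 CPM at passage 3, a log2 ratio of 3.80 that was 3.36 with TMM scaling. Eef2k stood at 48.7 and 9.60 CPM (log2 2.28), Eif4b at 759 and 168 CPM (2.17) and Eif4h at 459 and 105 CPM (2.12), with passage 10 first. Eef2 stood at 7453 CPM at passage 10 and 1917 CPM at passage 3, a log2 ratio of 1.96 that was 1.48 with TMM scaling. Those 5 stayed past 2-fold under both scalings. Eef1a1 stood at 5317 and 2351 CPM at passages 10 and 3, a log2 ratio of 1.18 that was 0.69 with TMM scaling.

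Lower at passage 10 was the cap-binding protein Eif4e, at 42.3 CPM at passage 10 and 143 CPM at passage 3 (log2 −1.75). Eef1e1 stood at 22.7 CPM at passage 10 and 119 CPM at passage 3 (−2.36), and Eif4e3 at 2.94 CPM at passage 10 and 14.3 CPM at passage 3 (−2.11). Eef1a2 and Eif1-ps1 were not listed at passage 10, where at most 10 reads were possible, against 60 and 153 reads at passage 3. At that upper limit they were at least 3.14-fold and 8.02-fold lower at passage 10. Between these ends, Eif4g1, Eif4a1 and Eif2s1 had log2 ratios of −0.24, −0.14 and −0.61, Eif4a3 and Eif4ebp1 0.86 and 0.61. With TMM scaling Eif2s1 stood past 2-fold lower, at −1.10, and Eif4g1 and Eif4a1 stood at −0.72 and −0.62. Eif4a3 and Eif4ebp1 then stood at 0.38 and 0.13. Eif5a (0.24) and Eif6 (0.05) turned to −0.24 and −0.43 with TMM scaling. Of the surrounding genes, Larp1, which binds the leaders of ribosomal protein mRNAs, stood at 306 CPM at passage 10 and 73.6 CPM at passage 3, Mknk2 at 197 and 49.8 CPM, Gfm2 at 9.82 and 40.8 CPM and Dph2 at 8.51 and 19.0 CPM.

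**Figure D4:**
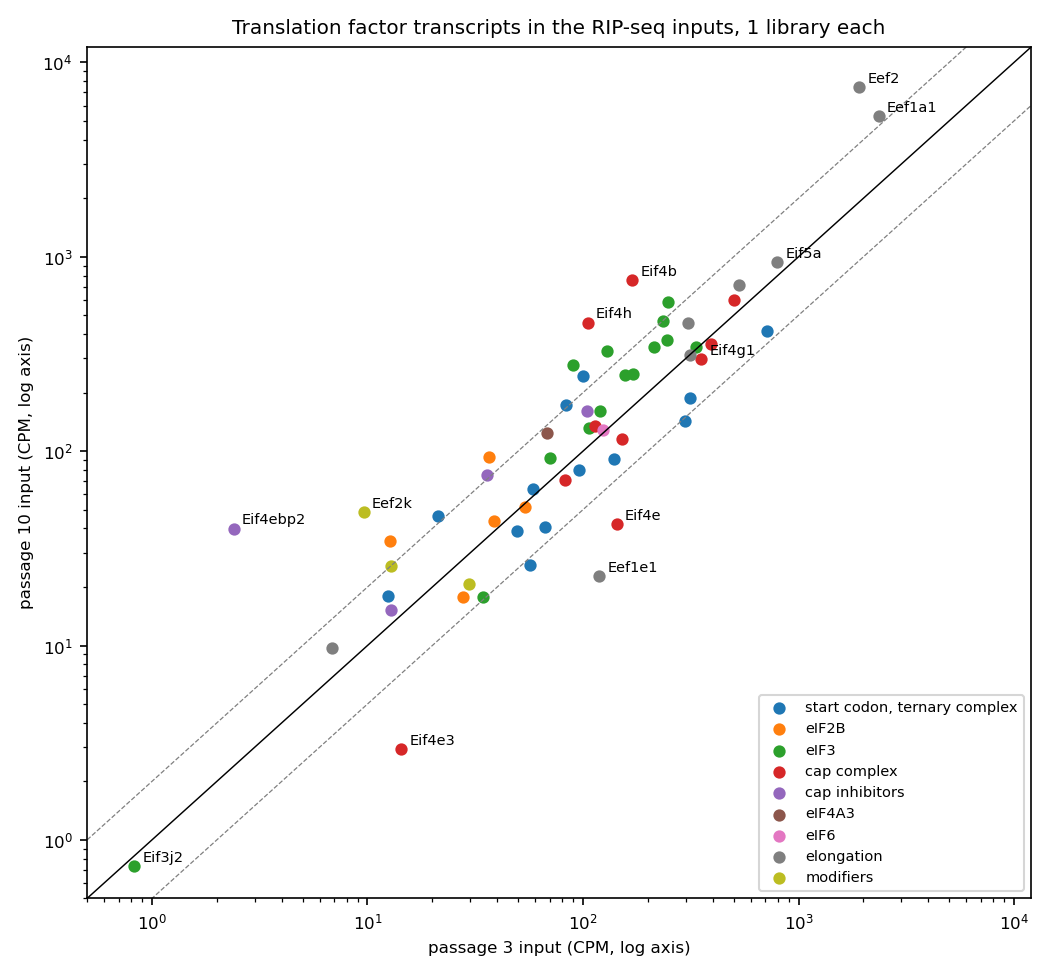
Level of the translation factor genes in the passage 10 input (y axis, CPM, log scale) against the passage 3 input (x axis, CPM, log scale), 1 library each, coloured by role; the solid line marks equal levels and dashed lines 2-fold. Eif4ebp2 lies farthest above the lines, Eef2 (7453 and 1917 CPM) is at the top, and Eif4e, Eif4e3 and Eef1e1 lie below; Eef1a2 is not listed at passage 10 and is not drawn.

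Markers of other cells differed between the same inputs. Adventitial fibroblast markers summed over 5 genes to 85.3 CPM at passage 10 and 1164 CPM at passage 3, of which Dcn made up 13.8 and 1041 CPM. Macrophage markers summed to 17.3 CPM at passage 10, with Ptprc and Adgre1 of the 5 unlisted, and to 152 CPM at passage 3 with all 5 detected. Endothelial markers summed over 6 genes to 65.2 CPM at passage 10 and 194 CPM at passage 3. Smooth muscle markers summed to 6520 CPM at passage 10 and 4515 CPM at passage 3, with 7 of 8 detected in both. They did not move together. Acta2, Smtn and Lmod1 were at least 2-fold higher at passage 10, and Myh11 and Des at least 2-fold lower. Acta2 stood at 4549 CPM at passage 10 and 2091 CPM at passage 3, and Tagln at 1359 and 2194 CPM. The part of these differences in cell makeup in the levels of the translation factors was not tested. Passage cannot be told apart from the library preparation of each passage.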

How the data were processed

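The submitters' processing notes name bcl2fastq, Subread, featureCounts, limma and mm9; which tool made which file, and whether counting used strand, is not stated there. The deposited tables hold unnormalized counts per gene, and a RIP-seq table leaves out genes with fewer than 11 reads in input and precipitate together. The authors' comparison table gives log2 fold changes and p-values, per the file headers. Their selected RIP-seq genes carry a posterior score, per the file headers, and only membership was used. RefSeq names and spans (GRCm38.p6) were joined by GeneID.

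Silencing was tested on counts with edgeR 4.0.16 in R 4.3.3 (quasi-likelihood, TMM, filterByExpr, Benjamini-Hochberg over all genes, threshold 0.05), with DESeq2 1.42.0 and limma-voom 3.58.1 as alternatives, after tests on simulated counts. RIP-seq CPM used each library's total, and intervals are exact conditional binomial ones. P-values measure the spread between libraries, which may be technical. The genes, lists and naming rule were chosen with earlier results of these data known. Named were 10 core factors, the 6 highest and 6 lowest in silencing, the 5 highest and 4 lowest in each precipitate, the 5 highest and 5 lowest between inputs, and the 2 highest and 2 lowest surrounding genes in each comparison. Other genes named beside them were chosen after their values were seen.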

Additional observations from a re-analysis of the deposited data

How the results depend on the processing

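No translation factor passed the threshold after Thoc5 silencing in any of the 11 alternatives. Over all genes the edgeR count of 0 became 48 with DESeq2, 1 with no low-count filter and 0 to 47 when libraries were left out, the 47 without shThoc5 replicate 1; the cause was not tested. With the replicate number as a block it was 511. Same-numbered libraries deviated together (correlation 0.635), but with 2 pairs and no batch in the labels the numbers were not taken as pairs. The median of the translation factors ran from −0.05 to 0.11 without single libraries. On library totals the log2 fold changes of Eef2, Eef1a1 and Eif4ebp1 turned to 0.00061, 0.025 and 0.023. Without single libraries they ran from −0.13 to 0.036 for Eef2, −0.24 to 0.15 for Eef1a1, −0.21 to 0.13 for Eif4ebp1, −0.089 to 0.39 for Eif2s1, −0.25 to 0.088 for Eif4g1, −0.10 to 0.28 for Eif6, −0.95 to 0.038 for Eif3j2, −0.019 to 0.082 for Eif5a and −0.64 to 0.042 for Eif2b2.

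Totals without ribosomal and mitochondrial RNA moved the passage 3 Thoc2 count of enriched genes to 8 (20.1% of all genes) and the median to −0.46. TMM factors moved the passage 3 Thoc5 depleted count to 16 (16.5%) and its median to −0.33. Between inputs TMM gave 6 genes higher (16.6%), 13 lower (21.45%) and a median of −0.23. A 1.5-fold threshold gave 8 enriched (24.2% of all genes) and 32 depleted (31.3%) with Thoc2 and 11 (32.3%) and 20 (20.6%) with Thoc5 at passage 3. At passage 10 it gave 21 depleted with Thoc2 (19.5%), and 3 enriched (16.7%) and 9 depleted (13.9%) with Thoc5. Between the precipitates of passage 3, both other scalings, chosen after seeing the data, left 2 of the 4 genes lower with Thoc2 past 2-fold. The RIP-seq libraries have no replicate, and depth limits the low genes, as in the interval of 1.97 to 4.92 for Eef1a2 with 31 reads.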
